A study of Mus musculus with 2 samples.

Results

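Glucose transporters and hexokinases are the first pair of steps of glucose use in the heart, and 8 of their genes were described here in the heart RNA of Med1fl/fl and csMed1-/- mice. The genes were taken by symbol from the 22882 symbols in the expression files. They are 5 transporter genes of the Slc2a family (Slc2a1, Slc2a3, Slc2a4, Slc2a8 and Slc2a12) and 3 hexokinase genes (Hk1, Hk2 and Hk3), and each stands on 1 row of the files. Hearts of 5 mice per genotype were pooled into 1 RNA-seq library, so n = 1 library per genotype and no value has a replicate error or a test. All mice were 23 days old, of both sexes and on the C57BL6/J background. In Med1fl/fl mice, the control, both alleles of the Mediator subunit gene Med1 carry loxP sites. The csMed1-/- mice carry the same floxed alleles and a Cre transgene driven by the α-myosin heavy chain promoter, which acts in cardiomyocytes, and the other cells of the heart are not targeted. The control mice are not labelled as carrying Cre. The unit is FPKM, a fragment count divided by transcript length and by library size. As it is per length, the levels of different genes may be set side by side.

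Glucose enters cells down its gradient through GLUT proteins, and hexokinases then trap it as glucose 6-phosphate. In heart and skeletal muscle the insulin-responsive carrier is GLUT4, which waits in vesicles inside the cell and moves to the surface when insulin or contraction calls for it. GLUT1 sits at the surface without insulin and is the main carrier of the fetal heart. Hexokinase 2 is the insulin-responsive hexokinase of adult muscle and hexokinase 1 is the general form found in most tissues and in the fetal heart. Both of these can dock on the outer membrane of mitochondria.

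Med1 itself had 3.38 FPKM in the control pool and 0.412 in the csMed1-/- pool, a ratio of 0.122. Of 10 cardiomyocyte markers 9 were used (Myh6 was not analysed here), and the 7 of them measured in both libraries summed to 51234 FPKM (control) and 19575 FPKM (csMed1-/-), which is 0.382 times as much. Their levels go with the heart label. Actc1 and Mb are listed at 0 in control, although they had 9189 and 1040 FPKM in csMed1-/- heart and heart muscle carries both in quantity. With these the csMed1-/- sum is 29804 FPKM and the ratio 0.582. That ratio counts both genes in csMed1-/- heart alone, so it is not comparable with 0.382. An exact 0 in these files can therefore be a failed estimate, and none of the 8 genes has one. The files give no read numbers. Steps among the 2461 rows with low values in both libraries gave a depth ratio of csMed1-/- to control of 1.39. The most crowded narrow range of ratios set this value, and it held 83 of these rows. Products of low FPKM and transcript length gave a ratio of 1.33 and roughly 62300000 fragments for control and 83000000 for csMed1-/- heart, if FPKM was scaled to mapped fragments alone.

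The sequences upstream of 3 genes are shown because these are the members beyond 2-fold for which RefSeq (GRCm38.p6) promoter windows were at hand. Each runs over the 250 bases before the annotated start, 5′ to 3′ on the strand of the gene, and the GENCODE start of Slc2a1 lies inside its stretch. Hk2 lies on the minus strand at chr6:82774455-82774704, Slc2a12 on the plus strand at chr10:22644761-22645010 and Slc2a1 on the plus strand at chr4:119108495-119108744. Capitals mark ACGTG, the core of hypoxia response elements, on either strand, and the stretch of Slc2a12 holds none.
Hk2 promoter: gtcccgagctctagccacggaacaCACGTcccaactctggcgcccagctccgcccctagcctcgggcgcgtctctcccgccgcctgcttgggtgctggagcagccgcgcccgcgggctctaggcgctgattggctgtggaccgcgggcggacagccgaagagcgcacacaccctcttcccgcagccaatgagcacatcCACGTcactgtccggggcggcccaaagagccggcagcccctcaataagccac
Slc2a12 promoter: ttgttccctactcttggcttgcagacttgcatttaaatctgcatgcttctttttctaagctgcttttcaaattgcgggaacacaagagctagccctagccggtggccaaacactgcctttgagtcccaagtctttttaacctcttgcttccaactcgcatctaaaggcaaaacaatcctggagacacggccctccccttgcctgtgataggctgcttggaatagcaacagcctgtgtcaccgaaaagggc
Slc2a1 promoter: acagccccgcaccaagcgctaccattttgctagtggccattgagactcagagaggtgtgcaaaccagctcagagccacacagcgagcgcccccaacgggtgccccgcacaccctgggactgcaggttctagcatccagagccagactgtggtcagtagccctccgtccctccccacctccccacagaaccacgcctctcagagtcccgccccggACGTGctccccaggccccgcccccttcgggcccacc

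Windows of 300 bases, which run 50 bases past the start, were at hand for 6 of the 8 genes, and Hk1 had a pair of them, which made 7 windows. Counted from the RefSeq start, Hk2 held 2 matches to ACGTG at -226 and -52, Slc2a1 held 1 at -36 and Hk3 held 1 at -156. A window of Hk1 held 2 past its start, at 8 and 17. The GENCODE start of Slc2a1 falls within its match at -36. The ACGTG core is in 19.6% of the 32851 RefSeq windows of that length. The consensus of MEF2 sites, with A or T at its 4 middle bases, is in 3.19% of windows and in none of the 7. A looser search, CTA and TAG with any 4 bases between, had 1 match, at -162 in Slc2a12, where the 4 bases are not A or T, and 3.69% of windows hold such a match. The GC box GGGCGG, in 35.7% of windows, had 3 matches in Hk2 and 2 in Slc2a1. The nuclear receptor core motif AGGTCA is in 16.3% of windows and its direct repeat with a spacer of 1 base, DR-1, in 0.0396%, and neither was in any of the 7. The E-box CACGTG, which contains ACGTG, is in 7.15% of windows and was absent from the 7 as well. Such matches are letters in a window and not measured binding sites.

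Among the transporters, Slc2a4 and Slc2a12 were far lower in csMed1-/- heart and Slc2a1 was higher. Slc2a4, the gene of GLUT4, had 347 FPKM in the control pool and 71.5 in the csMed1-/- pool, at a ratio of 0.206 and a log2 ratio of -2.28. It stood at rank 340 of the 22882 symbols by level in control and at rank 1363 in csMed1-/- heart. Slc2a12, the gene of GLUT12, a further carrier of heart and skeletal muscle, had 3.73 and 0.119 FPKM, a ratio of 0.0320 and a log2 ratio of -4.97. In control this gene was already expressed at a small part of the level of Slc2a4. The csMed1-/- value of Slc2a12 corresponds to about 39 fragments against about 921 in control, which gives the ratio a 95% interval of 0.0226 to 0.0440 for counting error alone (exact Clopper-Pearson). In the annotation, Slc2a12 (chromosome 10, 22645011 to 22704285, plus strand) overlaps Tbpl1 on the other strand, and whether strand was used in counting is not stated. Slc2a4 (chromosome 11, 69942539 to 69948188, minus strand) overlaps no other gene. In whole heart RNA, fewer cells of a type and less RNA per cell cannot be told apart, and the 7 cardiomyocyte markers kept had a median log2 ratio of -1.64.

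Slc2a1, the gene of GLUT1 (chromosome 4, 119108711 to 119137983, plus strand), was higher in csMed1-/- heart. It had 13.5 FPKM in the control pool and 33.0 in the csMed1-/- pool, a ratio of 2.44 and a log2 ratio of 1.29. Its span overlaps 3 annotated genes, the microRNA gene Mir1957a on the same strand and the antisense genes Gm12867 and Gm12868. Slc2a8 encodes GLUT8, a carrier held inside the cell (chromosome 2, 32972990 to 32982083, minus strand). It had 27.3 and 34.1 FPKM, a ratio of 1.25 (counting interval 1.20 to 1.31), which is within 2-fold. Slc2a3 encodes GLUT3, the high-affinity carrier of neurons, platelets and white blood cells, and had 0.615 and 0.993 FPKM (ratio 1.62, counting interval 1.32 to 1.98). It stayed below 1 FPKM in both libraries and so did not pass the filter on low values. A processed pseudogene lies within the span of Slc2a3 on the same strand (chromosome 6, 122727809 to 122801640), so its low values are uncertain.

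In the hexokinase family the muscle form was lower in csMed1-/- heart and the general form was within 2-fold. Hk2 (chromosome 6, 82725025 to 82774454, minus strand) had 39.7 FPKM in the control pool and 12.6 in the csMed1-/- pool, a ratio of 0.317 and a log2 ratio of -1.66. Hk1 (chromosome 10, 62268855 to 62379908, minus strand) had 91.6 and 122.5 FPKM, a ratio of 1.34 (counting interval 1.32 to 1.36), within 2-fold. Hk3 encodes the hexokinase of white blood cells and had 1.11 and 0.742 FPKM, a ratio of 0.672 with a counting interval of 0.548 to 0.823 from about 208 and 186 fragments. Hk3 and the gene Unc5a overlap on opposite strands (chromosome 13, 55005985 to 55021385), and Hk1 and Hk2 each overlap an annotated antisense transcript. The intervals describe counting in these libraries and not the variation between pools, which has no estimate.

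**Figure D1:**
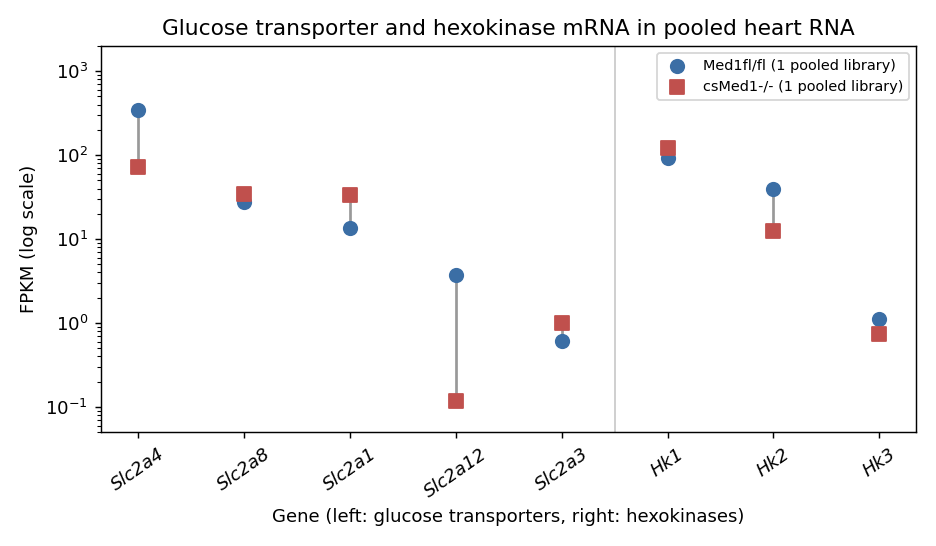
FPKM (log axis) of the 5 glucose transporter genes and 3 hexokinase genes in the Med1fl/fl library (circles) and the csMed1-/- library (squares), 1 pooled library each, joined by a line per gene. Slc2a4, Slc2a12 and Hk2 have the square far below the circle, Slc2a1 has it above, and the other genes lie closer together.

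Over the series, 31.5% of the 10489 genes kept by the filter (above 0 FPKM in both libraries and 1 FPKM or more in at least 1) differed by more than 2-fold, with 18.0% of the genes kept lower and 13.6% higher in csMed1-/- heart. Of the 8 genes, 7 passed this filter, and 4 of them were beyond 2-fold, with 3 lower (Slc2a4, Slc2a12 and Hk2) and 1 higher (Slc2a1). With so few genes nothing is read from these counts, and the place of each is given instead. A lower log2 ratio than that of Slc2a12 was found in 32 genes kept (0.305%), than that of Slc2a4 in 399 (3.80%) and than that of Hk2 in 843 (8.04%). A higher log2 ratio than that of Slc2a1 was found in 995 genes (9.49%). Hk1, Slc2a8 and Hk3 were between the quartiles of all genes kept, -0.72 and 0.55, around a median of -0.07.

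**Figure D2:**
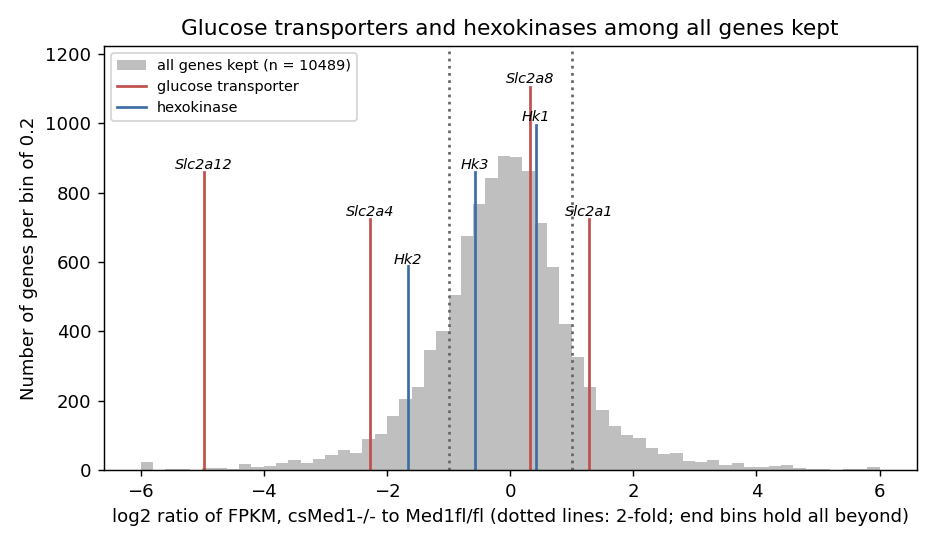
Number of genes (vertical axis) by log2 ratio of FPKM, csMed1-/- to Med1fl/fl (horizontal axis), for the 10489 genes kept, with a line at each of the 7 members kept. Slc2a12, at -4.97, is in the far lower tail, Slc2a4 and Hk2 are left of the lower 2-fold line, and Slc2a1 is right of the upper one.

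The make-up of each family within a library restates the same FPKM values as shares, a measure that does not depend on the scaling between libraries. Slc2a4 held 88.5% of the summed FPKM of the 5 transporters in control and 51.2% in csMed1-/- heart. The share of Slc2a1 was 3.46% and 23.6%, and that of Slc2a8 was 6.97% and 24.4%. A share also rises when another gene of the sum is lower, and the level of Slc2a8 itself had a ratio of 1.25. Control heart had 25.6 times as much Slc2a4 as Slc2a1, and csMed1-/- heart had 2.17 times as much. Slc2a4 was the highest of the 5 in both libraries, while Slc2a8 and Slc2a1 were close to each other in csMed1-/- heart, at 34.1 and 33.0 FPKM, values whose order cannot be set without replicates.

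For the hexokinases the share of the muscle form was smaller and that of the general form larger in csMed1-/- heart. Hk2 held 30.0% of the summed FPKM of the 3 hexokinases in control and 9.27% in csMed1-/- heart, and Hk1 held 69.2% and 90.2%. The level of Hk1 was 2.31 times that of Hk2 in control and 9.73 times in csMed1-/- heart. Hk3 was under 1% of the sum in both libraries, at 0.835% and 0.546%.

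The sum was lower for the transporters and nearly equal for the hexokinases. The summed FPKM of the transporters was 391.7 for control and 139.8 for csMed1-/- heart, at a ratio of 0.357. Without Slc2a4, the other 4 summed to 45.2 and 68.2 FPKM, a difference of 23.1 FPKM, beside a difference of -275.0 FPKM for Slc2a4. The summed FPKM of the hexokinases was 132.3 and 135.9, a ratio of 1.03. The difference of -27.1 FPKM in Hk2 stood beside a difference of 31.0 FPKM in Hk1. These are sums of mRNA levels and say nothing of protein or transport.

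**Figure D3:**
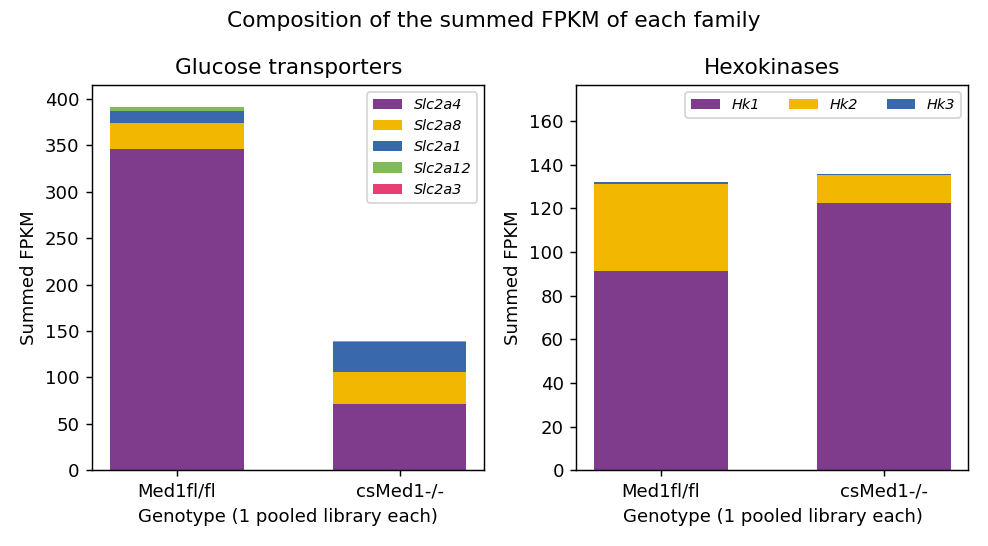
Stacked bars of FPKM (vertical axis, from 0) by gene for the transporters (left) and the hexokinases (right) in the 2 pooled libraries. The transporter bar is shorter in csMed1-/- heart through Slc2a4, whereas the hexokinase bars are of like height, at 132.3 and 135.9 FPKM, with less Hk2 and more Hk1.

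Other genes of both families were at low levels. Of 7 further Slc2a genes, Slc2a10 alone passed the filter, with 1.12 FPKM in control and 1.84 in csMed1-/- heart. Slc2a9, a urate carrier, had 0.763 and 0.504 FPKM, Slc2a6 had 0.315 and 0.376, and Slc2a2, the GLUT2 of liver and pancreatic islets, had 0.0428 and 0.0104. The fructose carrier gene Slc2a5 had 0.0404 and 0.106 FPKM, and the myo-inositol carrier gene Slc2a13 had 0.00550 and 0.0179. Slc2a7 is listed at 0 in both libraries. Hkdc1 is listed at 0 in control and had 0.00301 FPKM in csMed1-/- heart. Adpgk, an ADP-dependent sugar kinase, had 6.36 and 8.66 FPKM. The 6 sodium-glucose cotransporter genes summed to 0.138 FPKM in control and 0.0401 in csMed1-/- heart, and none passed the filter.

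Genes that act on GLUT4 vesicles lay on both sides. Of 19 listed genes 18 passed the filter, and 4 were lower and 3 higher by more than 2-fold, which is near the shares over all genes kept (18.0% and 13.6%). The median log2 ratio was 0.18, against -0.07 over all genes kept. Tbc1d4 (AS160), the Akt substrate that holds GLUT4 vesicles back until insulin acts, had 5.57 FPKM in the control pool and 1.66 in the csMed1-/- pool (log2 ratio -1.75). Stx4a, the gene of the surface syntaxin at which the vesicles fuse, had 15.3 and 6.02 FPKM (-1.35). Aspscr1, the gene of the tether TUG, had 37.3 and 141 FPKM (1.92), and Lnpep, an aminopeptidase carried in the same vesicles, had 1.41 and 3.49 FPKM over its pair of rows (1.31).

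Among genes that limit glucose uptake or hold hexokinase at mitochondria, 4 of the 6 kept were lower by more than 2-fold and none was higher, where 18.0% of all genes kept were lower and 13.6% higher, and the median log2 ratio was -1.35. With 6 genes and no replicates, nothing particular to them is read from this. The list joins both kinds of gene. All 3 VDAC genes, which encode the channels of the outer mitochondrial membrane on which hexokinases dock, were among the 4 lower. Vdac1 had 1052 FPKM in the control pool and 368 in the csMed1-/- pool (log2 ratio -1.52), and Vdac3 had 179 and 60.6 FPKM (-1.56). The arrestin-like genes Txnip and Arrdc4, whose products lower the amount of GLUT proteins at the surface, were higher within 2-fold. The count of lower genes and the median therefore do not describe Txnip and Arrdc4. Txnip had 169 and 282 FPKM (0.74), and Arrdc4 had 3.43 and 5.16 FPKM (0.59).

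Of 10 genes of transcription factors or coactivators known to act on Slc2a4 or Hk2, 9 passed the filter. By more than 2-fold 2 were lower and 2 higher, beside 18.0% and 13.6% of all genes kept, and the median log2 ratio was 0.08. Ppargc1a, the gene of the coactivator PGC1α, had 4.41 FPKM in the control pool and 0.953 in the csMed1-/- pool (log2 ratio -2.21). Esrra, the gene of the nuclear receptor ERRα, had 127 and 61.4 FPKM (-1.05). Myc had 1.38 and 3.91 FPKM (1.51), and Hif1a had 1.44 and 2.91 FPKM (1.02). Esrra and Hif1a are close to the 2-fold limit, so these counts depend on the setting.

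Of 11 listed genes for the fates of glucose 6-phosphate 10 passed the filter, and 1 was higher and 0 lower by more than 2-fold (13.6% and 18.0% over all genes kept), with a median log2 ratio of 0.36. Pgd and G6pdx, dehydrogenases of the pentose phosphate pathway, had log2 ratios of 1.34 (29.1 and 73.4 FPKM) and 0.93 (5.29 and 10.1 FPKM, just within 2-fold). Pgm2, a phosphoglucomutase, had -0.93 (188 and 98.8 FPKM), and Gys1, the muscle glycogen synthase, had -0.62 (102 and 66.9 FPKM).

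In later glycolysis, 14 of 16 listed symbols passed the filter, with 3 lower and 2 higher by more than 2-fold, near the 18.0% and 13.6% over all genes kept, and a median log2 ratio of 0.19. Pfkm, the muscle phosphofructokinase, had 646 FPKM in the control pool and 145 in the csMed1-/- pool (log2 ratio -2.16), and Pfkp, the platelet form, had 32.9 and 138 FPKM (2.07). Ldhb, the lactate dehydrogenase subunit typical of heart, had a log2 ratio of -1.55 (2175 and 743 FPKM), and Eno1, the general enolase, had 1.08 (204 and 430 FPKM).

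**Figure D4:**
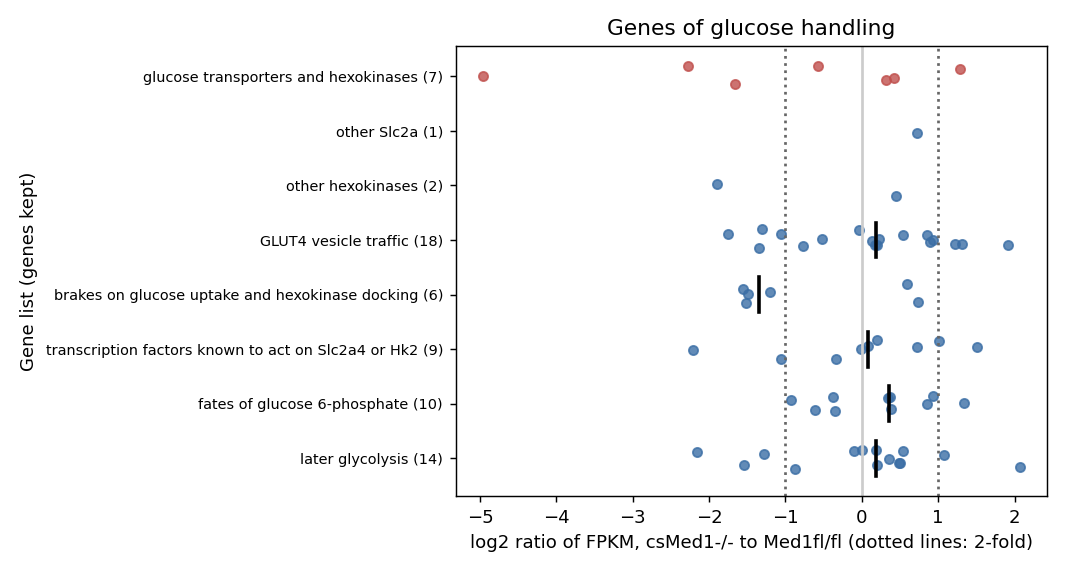
The log2 ratio of FPKM, csMed1-/- to Med1fl/fl (horizontal axis), of each gene kept, for the members and the lists of glucose handling genes (rows, with the number of genes kept), where a point is a gene and a black bar the median of a list. The 7 members kept spread from -4.97 to 1.29, and in each plotted list of 6 or more genes the points lie on both sides of 0.

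The genes nearest to Slc2a4 in level in both libraries were Hopx, Ppif and Adprhl1, at distances of 0.12, 0.13 and 0.14 on the log2 scale over the 2 libraries. Hopx had 359 FPKM in the control pool and 66.2 in the csMed1-/- pool. Nearest to Hk2 were Rassf3, Phyhd1 and Dpt, at 0.06, 0.07 and 0.08, and Rassf3 had 38.5 and 12.2 FPKM. With only a pair of libraries, such likeness is of level and ratio alone.

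Cell type markers were not level between the libraries. All 7 cardiomyocyte markers kept had a log2 ratio below 0, 5 of them beyond 2-fold, with a median of -1.64, beside -2.28 for Slc2a4 and -1.66 for Hk2. These markers ranged from -3.78 (Pln) to -0.52 (Ttn), and whether they follow the amount of cardiomyocytes was not tested. Taken relative to that median, Slc2a4 had -0.64 and Hk2 -0.0164, both within 2-fold, and Slc2a12 had -3.33. The study itself lists Ryr2 and Pln, both among these markers, as down-regulated in csMed1-/- heart. With another marker as reference the relative values would differ. The 10 endothelial markers summed to 628 FPKM in control and 595 in csMed1-/- heart, with 3 lower and 1 higher beyond 2-fold. For Slc2a1, which red cell precursors carry too, 3 of 9 erythroid markers were analysed here, and they summed to 36.5 and 85.7 FPKM. Both erythroid markers kept were higher by more than 2-fold, and Alas2 had 35.8 and 82.1 FPKM. The 7 fibroblast markers summed to 310 and 672 FPKM, with 2 lower and 3 higher beyond 2-fold. Most of the second fibroblast sum was Col1a1, at 129 and 502 FPKM. The median log2 ratio of the 7 was -0.02, with 4 below 0 and 3 above.

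White blood cell markers bear on Hk3 and Slc2a3. The 8 macrophage markers summed to 165.6 FPKM in control and 131.9 in csMed1-/- heart, with 0 lower and 1 higher beyond 2-fold. Most of both macrophage sums was Lyz2, at 116 and 68.0 FPKM. Of the 7 macrophage markers kept, 4 had a log2 ratio below 0 and 3 above. The 6 neutrophil markers summed to 4.83 and 16.1 FPKM, with all 3 kept higher beyond 2-fold. The 5 platelet markers summed to 30.3 and 40.8 FPKM, with 3 of the 4 kept higher beyond 2-fold, and the 5 smooth muscle markers to 615 and 1041 FPKM, with 1 lower and 2 higher beyond 2-fold. Most of the second smooth muscle sum was Cnn1, at 4.32 and 622 FPKM, whereas Acta2 had 573 and 310. Skeletal muscle and adipose tissue are rich in GLUT4 and hexokinase 2. The 5 skeletal muscle markers summed to 6.35 and 4.64 FPKM, and of the 2 kept Myh1 was lower, at 4.05 and 0.471, and Mylpf higher, at 0.955 and 2.44. Below the filter, Myh4 was lower (0.878 and 0.135 FPKM), while Tnnt3 (0.0967 and 0.867) and Actn3 (0.366 and 0.733) were higher. The 5 adipose markers summed to 37.6 and 81.5 FPKM, nearly all of it Cidea, while Ucp1 and Lep are listed at 0 in both libraries and Adipoq and Plin1 at 0 in control. The part of these cell types in the differences was not tested.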

How the data were processed

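Heart RNA of 5 mice per genotype was pooled and 1 directional, oligo-dT-selected library of 50 nt single-end reads was made from each pool. With TopHat v2.0.8b the authors mapped these to mm10, and they derived the deposited FPKM values for known genes (UCSC annotation) with Cufflinks v2.1.1 and cuffdiff. The submitters' processing notes also list STAR 2.4.0h, Bowtie2 and DESeq2, with no role given. Scaling between libraries and use of strand are not given in the sources used here.

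Values were used as deposited. The 23424 rows of each library were summed by symbol, and 412 symbols stood on several rows. A change is given as csMed1-/- FPKM divided by control FPKM. With 1 library per genotype no test was made, and 2-fold, a limit the study also used, serves as a description. The study applied a false discovery rate cutoff from cuffdiff besides, which was not applied here. Counts beyond 2-fold are therefore not comparable with those of the study. Fragment numbers were estimated after seeing the data, from products of FPKM below 0.2 and GENCODE M21 transcript length less a fragment of 200 bases. Positions are from GENCODE M21 (GRCm38). Computation used Python 3.11.15 with pandas 2.3.3, numpy 2.4.6, matplotlib 3.10.9 and scipy 1.17.1, and the ratio computation was tested on simulated data.

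The members and gene lists were chosen with earlier results of these data known. Named were the members, Med1, further Slc2a and hexokinase genes measured (1 is not reported here), the 2 highest and 2 lowest log2 ratios of each other list (where genes were kept), and the 3 genes nearest in level to Slc2a4 and Hk2. Marker genes named besides were chosen after their values were seen. Alternatives were pseudocounts of 0.1 and 1 FPKM, 3 scalings, the highest row alone, other filters, a 4-fold limit and all measured family genes. Scaling to the cardiomyocyte markers and the MEF2 consensus search were added after seeing the data. Protein sequences were not used here.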

Additional observations from a re-analysis of the deposited data

How the results depend on the processing

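No replicate exists, so each result was judged by its direction, its side of the 2-fold limit and a move of over 1.5 times. The 8 log2 ratios kept direction and side under both pseudocounts and the 3 scalings, and the median of all genes was -0.07. The highest row alone could not change them, as each of the 8 genes stands on 1 row. Slc2a12 moved most, from -4.97 to -4.13 with 0.1 FPKM added and to -2.08 with 1 FPKM added, and its csMed1-/- value is near the smaller of these. With a 4-fold limit 2 members were lower in place of 3 and 0 higher in place of 1 (5.14% and 4.32% of all genes). Slc2a12 was not kept with 1 FPKM or more in both libraries, or with 10 FPKM or more in at least 1. Of 5 members kept, 2 were then lower and 1 higher. The shares of all genes were 14.7% and 11.3% for the former filter, and 16.3% and 15.1% for the latter. Family shares moved by less than 1.5 times with all measured family genes. The isoform ratios were rerun with the highest row alone, which could not change them. Centring on the median left 1 gene of the transcription factor and coactivator list lower and made 2 genes of glucose 6-phosphate higher. With 1 FPKM added 1 gene of the former list was higher. The GLUT4 vesicle genes went from 4 lower and 3 higher to 3 and 4 on centring, and to 3 and 2 with 1 FPKM added.

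Relative to the cardiomyocyte markers (chosen after seeing the data, log2 shift -1.64), 1 member was lower and 4 higher by more than 2-fold, as were 2.70% and 72.4% of all genes. The log2 ratio was then -0.64 for Slc2a4, -0.0164 for Hk2, -3.33 for Slc2a12, 2.92 for Slc2a1, 2.33 for Slc2a3, 1.96 for Slc2a8, 2.06 for Hk1 and 1.07 for Hk3, which reversed. The markers kept ranged from -3.78 to -0.52, so another choice of marker would give another shift. Depth limits Slc2a12, Hk3 and Slc2a3 most. No paired analysis was possible because each genotype has 1 library.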
